A study of Vitis riparia with 12 samples.

Results

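The comparison of SD7 with LD7 asks what had changed in the shoot tips of Vitis riparia, the riverbank grape, after 7 days of a shorter photoperiod. It rests on 6 of the 12 RNA sequencing libraries of the series, chosen by their titles: 3 libraries of vines moved to 13 h of light (SD7) and 3 libraries of vines kept at 15 h (LD7). The other 6 libraries, SD21 and LD21, come from the same treatments at day 21. All groups were of the genotype PI588259. Potted, spur-pruned vines 6 years old, taken out of cold storage, grew in a greenhouse under 15 h of light for 30 days and were then randomized, and the photoperiods diverged 5 days later. SD vines were covered by a blackout system, and LD vines stayed in the photoperiod in which all had grown. Each library is a pool from 5 vines, so the p-values below measure the spread between such pools. The sampled tip spans 4 nodes and holds growing point, young leaves and stem together, so fewer cells of a type and less RNA per cell cannot be told apart.

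Day length is perceived in leaves, where photoreceptors and the circadian clock together measure the length of the night. In woody plants of temperate climates a day shorter than a critical length leads, over weeks, to the end of shoot elongation, the set of dormant buds and later acclimation to cold. V. riparia is a widely used model for this response because short days alone induce it while temperatures are still warm. Transcripts that differ within the first days of a shorter photoperiod are of interest as the earliest part of the response.

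Values are FPKM, that is fragments scaled to the length of the transcript and the number of mapped reads, for 29970 loci. The 21848 loci at 1 FPKM or more in at least 3 of the 12 libraries were tested with limma on log2(FPKM + 1), and a locus is called where its Benjamini-Hochberg adjusted p is under 0.05. Fold changes are SD7 minus LD7 on that log2 scale, which understates the change of low loci. None of the identifiers could be paired with a gene name, so families are described as neighbouring loci and by their values. Tissue markers could not be checked for the same reason, and no gene is given a function. Beyond the 2 called loci that rose and the 2 that fell by the largest gap between the groups, loci are given by position and were picked out with their values known. The absolute depth is unknown. Relative depth, from the steps that single reads leave in low values, was 1.58, 1.04 and 1.00 in SD7 replicates 1, 2 and 3 and 1.00, 1.08 and 1.27 in LD7 replicates 1, 2 and 3. The 10 most abundant loci held 9.63% ± 0.28 of the FPKM in SD7 and 8.70% ± 0.31 in LD7 (SD, n = 3 each). Those shares did not overlap, at an exact two-sided permutation p of 0.1, the smallest that 3 libraries against 3 allow.

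The difference after 7 days was small and ran in both directions. In SD7, 78 loci were called higher and 104 lower than in LD7, together 182 or 0.833% of those tested (0.357% higher and 0.476% lower). The median log2 fold change was 0.90 over the loci called higher and -1.04 over those called lower, and 24 and 56 of them differed at least 2-fold. Over all tested loci the median log2 fold change was -0.03 and the median of its absolute value 0.18, against 0.81 for SD21 against LD21. The most abundant called locus, on chromosome 3 at 5832925 to 5833945, stood at 839.7, 672.8 and 799.5 FPKM in SD7 against 1980, 1770 and 1723 FPKM in LD7. Its SD7 libraries all lay below its LD7 libraries (log2 fold change -1.25 ± 0.22, SE, limma adjusted p = 0.0354).

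**Figure D1:**
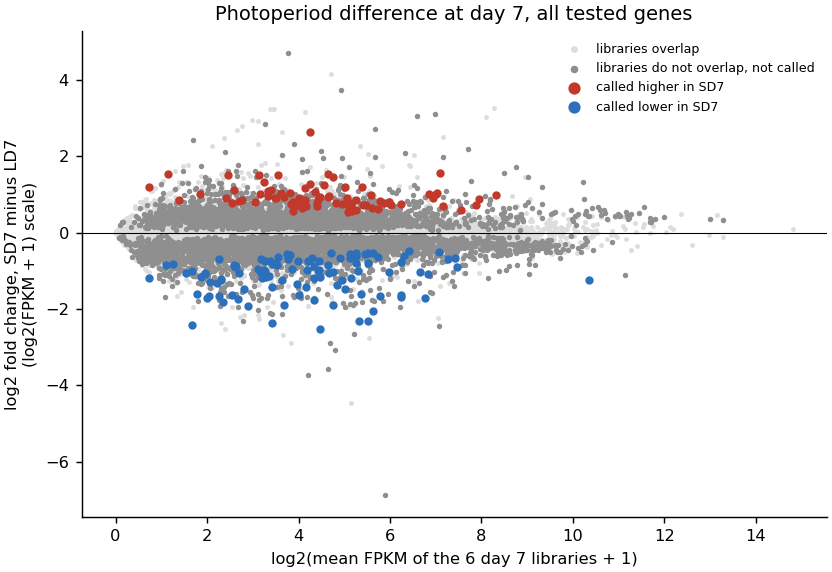
Log2 fold change of SD7 minus LD7 (y axis) against log2 of the mean FPKM + 1 of the 6 day 7 libraries (x axis), 1 point per tested locus, coloured where called (78 higher, 104 lower). Called loci lie at all but the highest levels, and many grey points farther from 0 were not called.

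The larger side depended on the scaling. Quantile normalization gave 101 loci called higher and 86 lower, and it also turned the counts of loci whose libraries do not overlap. Median-ratio scaling kept the lower side larger in both counts, with 57 loci called higher and 61 lower. The total also changed with the libraries used. Limma on the 6 day 7 libraries alone, which has fewer degrees of freedom and its own spread, called 9 loci (3 higher and 6 lower, none of the named loci). Left out in turn, SD7 replicates 1, 2 and 3 gave 28, 11 and 103 called loci, LD7 replicates 1, 2 and 3 gave 2, 2 and 11, SD21 replicates 1 and 3 gave 99 and 111, and LD21 replicate 2 gave 69. At an unadjusted p under 0.05, 1362 loci were higher and 1896 lower.

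**Figure D2:**
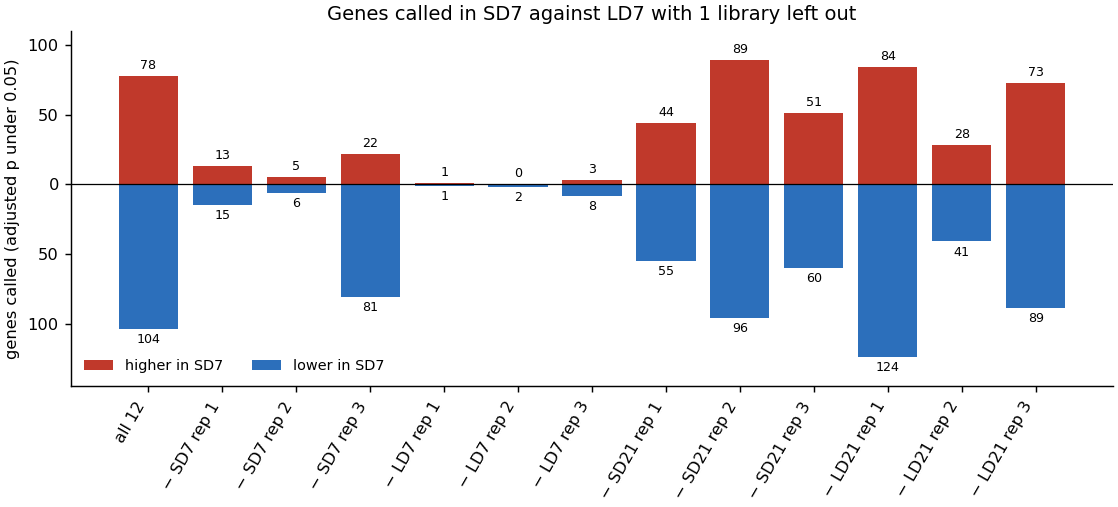
Loci called in SD7 against LD7 (y axis, number of loci; higher in SD7 above 0, lower below) with all 12 libraries and with each library left out (x axis). The totals run from 2 without LD7 replicate 1 or 2 to 208 without LD21 replicate 1, against 182 with all.

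Every SD7 library lay above every LD7 library in 2415 tested loci (11.1%) and below in 2996 (13.7%), so the groups did not overlap in 24.8% of the loci. Quantile normalization gave 2993 above and 2491 below, and median-ratio scaling 2670 above and 2885 below. Most of these loci moved little, with a median log2 fold change of 0.37 above and -0.39 below. They were ranked by the gap on the log2(FPKM + 1) scale between the lowest library of the higher group and the highest library of the lower group. The gap was under 0.1 in 1124 of those above and in 1350 of those below. It reached 1 or more in 13 above, of which 5 were called, and in 24 below, of which 17 were called. In all, 280 loci with no overlap differed at least 2-fold and were not called, including the uncalled ones with a gap of 1 or more. Of the 280, 32 had a day 7 library listed at 0.

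VIT_00s0179g00150, on sequence not placed on a chromosome (Un, 7416096 to 7419674), had the largest gap among the loci called higher. It stood at 30.5, 17.5 and 47.7 FPKM in SD7 against 3.31, 5.73 and 3.05 FPKM in LD7. All 3 SD7 libraries were high, and the lowest of them, replicate 2, was still well above the highest LD7 library (log2 fold change 2.64 ± 0.50, SE, limma adjusted p = 0.0445). At day 21 it stood at 1.64, 1.94 and 1.15 FPKM in SD21 against 9.20, 2.01 and 1.45 FPKM in LD21. Only LD21 replicate 1 was raised there, though even that library lay below all SD7 libraries, and the day 21 effect was -0.73 ± 0.50 (adjusted p = 0.22). Omitting any single day 7 library, any SD21 library or LD21 replicate 2 ended its call at day 7 (limma adjusted p up to 0.143).

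VIT_16s0050g02680, on chromosome 16 at 19697404 to 19699942, was the second by gap. It stood at 8.48, 5.65 and 7.19 FPKM in SD7 against 2.09, 1.41 and 2.09 FPKM in LD7. The groups did not overlap, and the libraries within each were close together (log2 fold change 1.50 ± 0.26, SE, limma adjusted p = 0.0354). By day 21 the levels were 33.3, 19.6 and 33.7 FPKM in SD21 against 2.89, 1.14 and 2.05 FPKM in LD21. The SD21 levels were the highest of all 12 libraries and the LD21 levels spanned those of LD7, with a day 21 effect of 3.30 ± 0.26 (SE, limma adjusted p = 6.2e-07). Omitting any single day 7 library ended its call at day 7 (limma adjusted p up to 0.153).

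VIT_03s0063g02620, on chromosome 3 at 5847818 to 5849159, had the largest gap among the loci called lower at 5 FPKM or more in LD7. It stood at 3.41, 2.32 and 1.48 FPKM in SD7 against 26.0, 13.5 and 11.5 FPKM in LD7. Every SD7 library was below every LD7 library (log2 fold change -2.36 ± 0.32, SE, limma adjusted p = 0.0170). Its day 21 levels were 0.306, 0.692 and 0 FPKM in SD21 against 13.3, 11.0 and 7.85 FPKM in LD21. The day 21 effect, -3.14, differed from that of day 7 by -0.78 ± 0.46 (adjusted p = 0.168). The most abundant called locus, described above, lies beside it on chromosome 3. That neighbour was lower at day 21 as well, with a log2 fold change of -1.99. Omitting SD7 replicate 2, LD7 replicate 1 or LD7 replicate 2 ended the call of VIT_03s0063g02620 (limma adjusted p up to 0.0889).

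VIT_18s0001g02360, on chromosome 18 sequence without a fixed place (18_random, 2669882 to 2677720), followed by gap. It stood at 6.94, 4.67 and 3.64 FPKM in SD7 against 19.5, 62.3 and 29.7 FPKM in LD7. The groups did not overlap, though LD7 replicate 2 was far above the other LD7 libraries (log2 fold change -2.52 ± 0.43, SE, limma adjusted p = 0.0354). By day 21 it was listed at 0, 0 and 0.976 FPKM in SD21, against 108, 73.0 and 51.4 FPKM in LD21. On the same sequence, the loci at 2665467 to 2668026 and at 2632544 to 2645773 were picked from those with a gap of 1 or more. Their lack of overlap is therefore given by the choice, and other loci nearby are not described. Their log2 fold changes were -1.79 and -1.86, and they were not called (limma adjusted p = 0.0772 and 0.0569). LD7 replicate 2 was the highest library of day 7 in both. Omitting any single day 7 library or LD21 replicate 2 ended the call of VIT_18s0001g02360 (limma adjusted p up to 0.127).

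**Figure D3:**
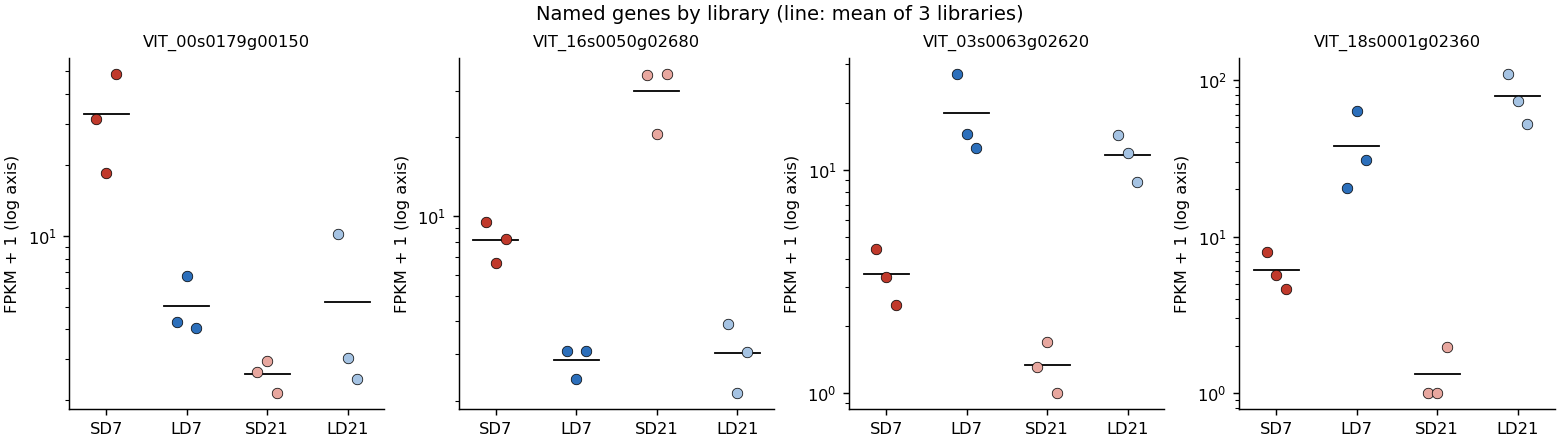
FPKM + 1 (log axis) of the 4 named loci in each library of SD7, LD7, SD21 and LD21 (points), with lines at the mean of 3 libraries. No SD7 point overlaps an LD7 point, while the LD21 libraries of VIT_00s0179g00150 include the single high value of 9.20 FPKM.

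Other loci called higher with a wide gap held at day 21 or did not. The 7_random locus at 899934 to 900632 stood at 12.1, 11.6 and 13.9 FPKM in SD7 against 3.69, 4.69 and 4.89 FPKM in LD7 (log2 fold change 1.32 ± 0.17, SE, limma adjusted p = 0.0170). Its SD21 libraries, at 46.6, 33.4 and 42.2 FPKM, were higher still against 2.88, 3.50 and 2.10 FPKM in LD21. The chromosome 9 locus at 18991809 to 19000439 stood at 32.5, 42.2 and 33.3 FPKM in SD7 against 8.74, 12.6 and 14.6 FPKM in LD7 (1.53 ± 0.28, adjusted p = 0.0417). At day 21 its SD21 libraries, 10.3, 7.09 and 9.57 FPKM, overlapped its LD21 libraries, 12.7, 7.45 and 5.03 FPKM. Thus 1 of these loci was called in the same direction at both days and the other at day 7 only. The difference of the effects was called in both. Picking loci by a wide day 7 gap itself pushes this difference downward, so nothing is read from that of the chromosome 9 locus.

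Several loci lower in SD7 were higher in SD21. Another chromosome 9 locus, at 16094244 to 16096198, stood at 1.64, 1.12 and 1.17 FPKM in SD7 against 6.77, 6.61 and 5.60 FPKM in LD7 (log2 fold change -1.67 ± 0.22, SE, limma adjusted p = 0.0170). The day 21 levels were 27.6, 30.0 and 30.9 FPKM in SD21 against 9.45, 5.24 and 11.5 FPKM in LD21. The groups did not overlap at either day, and the direction was opposite. The chromosome 18 locus at 25936363 to 25938905 went the same way, at 0.575, 0.475 and 1.15 FPKM in SD7 against 4.45, 3.87 and 4.25 FPKM in LD7. Its day 21 values were 21.5, 23.9 and 36.1 FPKM in SD21 against 2.89, 5.83 and 3.16 FPKM in LD21. Both loci were called at both days, and their SD21 libraries were the highest of all 12.

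Some loci moved with their neighbours along a chromosome. Runs of at least 3 consecutive tested loci that all differed at least 2-fold in 1 direction were sought after the values were seen, and 7 ran lower and 1 higher in SD7. By single loci, 1.02% of those tested were at least 2-fold higher and 1.6% at least 2-fold lower. The longest run, on chromosome 16 at 6676141 to 7045848, held 13 tested loci of 15 listed. In all 13 the SD7 libraries lay below the LD7 libraries, beside 13.7% of all tested loci. The choice of loci at least 2-fold lower itself favours this, since 232 of the 350 such loci had no overlap. Log2 fold changes ran from -1.95 to -1.10. Of the 13 loci, 2 were called, beside 0.476% of all tested loci called lower (adjusted p over the run 0.0170 to 0.106). The 13 loci together summed to 139.5, 87.3 and 349.0 FPKM in SD7 against 577, 543 and 665 FPKM in LD7. SD7 replicate 3 was closest to LD7 in the sum. One of the called loci, at 7044797 to 7045848, stood at 9.36, 7.20 and 15.9 FPKM in SD7 against 38.4, 36.7 and 48.5 FPKM in LD7 (log2 fold change -1.89 ± 0.24, SE, limma adjusted p = 0.0170).

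At day 21 the same 13 loci summed to 1437, 1612 and 1384 FPKM in SD21 against 716, 1422 and 953 FPKM in LD21. These sums overlapped, since LD21 replicate 2 was above SD21 replicate 3. The 4 loci at the far end of the run, from 6973918 to 7045848, were called higher at day 21, and none of the 13 was called lower. Over all tested loci, 24.6% were called higher and 43.7% lower at day 21. The difference between the days was called in 12 of the 13, beside 55.1% of all tested loci. The run was chosen by its low day 7 effects, which itself pushes this difference upward, so nothing is read from the count. How reads that match several loci were shared is not given in the sources used here. Whether the loci of this run are near-identical could not be checked. If they share reads, its single loci are less certain than its sum.

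The run that was higher lay on chromosome 4 at 1219941 to 1249249 and held 9 tested loci of 10 listed. Log2 fold changes were 1.19 to 3.06. The libraries did not overlap in 7 of the 9, beside 11.1% of all tested loci higher without overlap. The choice of loci at least 2-fold higher itself favours this, since 128 of the 222 such loci had no overlap. None of the 9 was called (limma adjusted p 0.238 to 0.769). The 9 loci summed to 1203, 300.2 and 1932 FPKM in SD7 against 132, 263 and 226 FPKM in LD7. SD7 replicate 2 was close to the highest LD7 library, and the other SD7 libraries were far above. At day 21 the sums were 15.8, 11.6 and 6.12 FPKM in SD21 and 706, 23.9 and 23.1 FPKM in LD21. Every LD21 sum lay above every SD21 sum, and a single library, LD21 replicate 1, was far above the rest. At day 21, 2 of the 9 loci were called lower in SD21 (limma adjusted p = 0.0374 and 0.0418), beside 43.7% of all tested loci. The difference between the days was called in 5 of the 9, beside 55.1% of all tested loci. Choosing this run by its high day 7 effects itself pushes the difference downward, so nothing is read from that count. The locus at 1244736 to 1246530 had the widest gap of the run, with 188, 49.2 and 286 FPKM in SD7 and 11.8, 20.7 and 15.7 FPKM in LD7. The loci at 1223277 to 1224822 and 1224822 to 1225354 touch, so reads at their boundary could count toward either.

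Other loci shared that order of libraries, with SD7 replicates 3 and 1 highest and LD21 replicate 1 above the other day 21 libraries. VIT_00s0179g00150 had Pearson correlations of 0.844 to 0.944 with the 9 loci of the chromosome 4 run over the 12 libraries on the log2(FPKM + 1) scale, which are given as a description. Its highest correlations over all tested loci were with loci on chromosome 5 at 3139259 to 3139761 (0.968), on chromosome 4 at 921551 to 923881 (0.960) and on chromosome 2 at 412620 to 415596 (0.950). The chromosome 2 locus stood at 272, 84.1 and 332 FPKM in SD7 against 18.0, 24.2 and 24.7 FPKM in LD7. Its groups did not overlap, but the 3 SD7 libraries were spread widely and it was not called (log2 fold change 3.10 ± 0.92, SE, limma adjusted p = 0.164). Its levels at day 21 were 2.94, 2.89 and 0.928 FPKM in SD21 against 103, 6.73 and 7.07 FPKM in LD21. LD21 replicate 1 was again the only high library of day 21. The libraries were not grouped by this pattern, and what sets it was not tested.

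**Figure D4:**
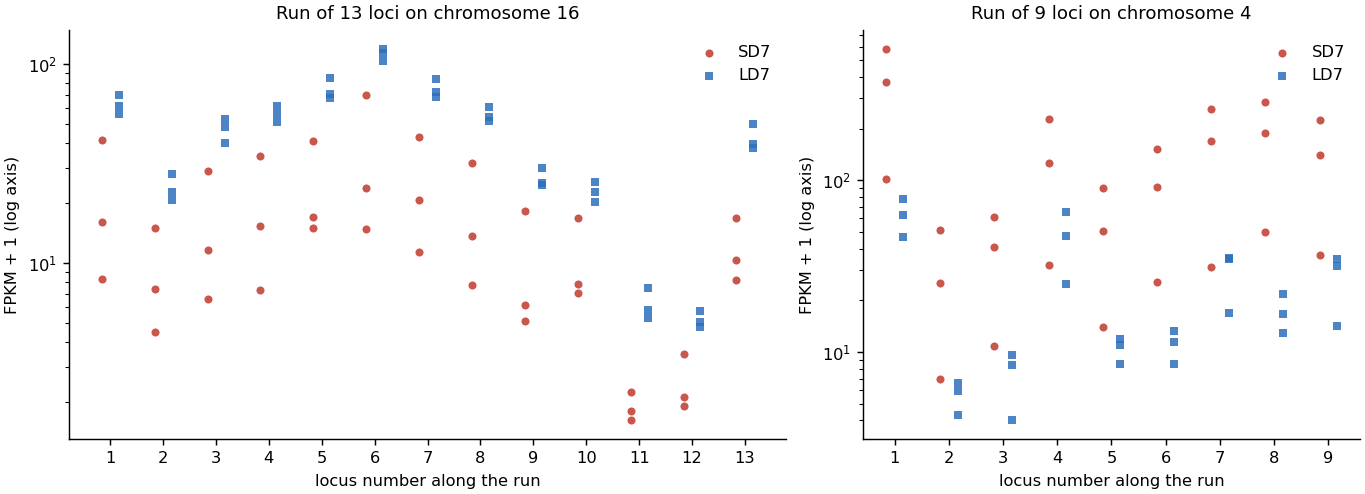
FPKM + 1 (log axis) of each tested locus along the chromosome 16 run (left, 13 loci) and the chromosome 4 run (right, 9 loci), with 3 points per group. In the left panel all SD7 points lie below the LD7 points of their locus. In the right panel the lowest SD7 point, replicate 2, lies near or among the LD7 points at most loci and well above them at loci 6 and 8.

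The shorter runs differed in what followed at day 21. On chromosome 11 at 18301080 to 18351149, 3 loci summed to 167, 86.8 and 143 FPKM in SD7 against 231, 403 and 280 FPKM in LD7. They summed to 6.09, 3.50 and 0.784 FPKM in SD21 against 693, 516 and 415 FPKM in LD21. None was called at day 7, where the sums did not overlap, and all 3 were called lower at day 21, beside 43.7% of all tested loci. On chromosome 18 at 4652463 to 4663192, 3 loci summed to 58.6, 38.4 and 110 FPKM in SD7 against 258, 189 and 177 FPKM in LD7. Of them 1 was called lower, beside 0.476% of all tested loci. At day 21 these sums were 323, 311 and 469.5 FPKM in SD21 and 258, 437 and 352 FPKM in LD21, and overlapped. The sum is held mostly by 2 of the loci. The least abundant, at 4659692 to 4663192, stood at 26.3, 25.1 and 40.8 FPKM in SD21 against 7.46, 10.4 and 5.55 FPKM in LD21 and was called higher at day 21 (log2 fold change 1.85 ± 0.29, SE, limma adjusted p = 0.000153). The difference between the days was called in all 3, beside 55.1% of all tested loci, but choosing the run by its day 7 effects itself favours this. On chromosome 8 at 13100238 to 13125212 the run of 3 summed to 22.7, 20.5 and 7.20 FPKM in SD7 against 19.7, 49.7 and 114 FPKM in LD7, and the groups overlapped in all 3 loci.

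Some called loci were neighbours, at a count that was not tested against the number chance would give and that ran from 0 to 24 pairs over the alternatives. Next to each other in the order of tested loci were 4 pairs called in the same direction and 0 called in opposite directions, and 9 groups had at most 3 tested loci between called ones. Of these groups 8 were lower and 1 higher. The higher one, on chromosome 3 at 9455171 to 9508439, held 2 loci that summed to 51.7, 51.6 and 74.4 FPKM in SD7 against 26.7, 32.2 and 31.8 FPKM in LD7. They summed to 21.8, 29.1 and 19.8 FPKM in SD21 against 28.3, 21.9 and 24.4 FPKM in LD21. Neither was called at day 21, where the groups overlapped. On chromosome 8 at 12066762 to 12104651, 2 loci summed to 69.1, 53.2 and 74.2 FPKM in SD7 against 131, 160 and 114 FPKM in LD7. Both were called lower at day 21 as well, at sums of 17.1, 23.1 and 26.6 FPKM in SD21 and of 353, 260 and 309 FPKM in LD21.

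Some pairs of called loci on the same chromosome kept a nearly constant ratio in every library. Among the 16471 pairs of called loci, the SD of the log2 ratio over the 12 libraries was under 0.1 in 3, against a median of 1.20 over all pairs. These are the pairs of the chromosome 3 and chromosome 8 groups above and a pair on chromosome 18 at 4594154 to 4595268 and 4658418 to 4659571, which lie 63150 bp apart. The first of the chromosome 18 loci stood at 10.7, 5.53 and 26.6 FPKM in SD7 against 74.8, 58.6 and 57.5 FPKM in LD7. The second stood at 12.4, 6.47 and 31.2 FPKM in SD7 against 88.4, 68.1 and 62.5 FPKM in LD7. The ratio of the first to the second stayed between 0.754 and 0.920 in all 12 libraries. Their log2 fold changes were -2.32 and -2.31 (limma adjusted p = 0.0421 and 0.0434). Whether reads were shared between the loci of such a pair was not tested.

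The share of loci called varied with level, length and placement. The share called was 0.405% of loci averaging under 5 FPKM over the libraries, 0.891% from 5 to 20, 1.20% from 20 to 100 and 1.00% at 100 FPKM or more. By length of the locus it was 1.11% under 1000 bp, 1.09% from 1000 to 2000 bp, 0.982% from 2000 to 5000 bp and 0.450% at 5000 bp or more. The median length was 2558 bp over the loci called higher, 1935 bp over those called lower and 3378.5 bp over all tested loci. Loci on unplaced or random sequence were 14 of the 78 called higher (17.9%) and 8 of the 104 called lower (7.69%), beside 10.1% of those tested. These are shares without a test, and level and length also bear on how precisely FPKM is measured.

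The loci called at day 7 were also looked up at day 21. The means of the 2 days come from different libraries, but both comparisons share the filter and 1 spread per locus, so a call at day 7 favours loci with a small shared spread, which are more readily called at day 21 too. Among the 78 loci called higher in SD7, 52 were called higher at day 21, 10 lower and 16 not, and the median day 21 log2 fold change was 0.82. Among the 104 called lower in SD7, 39 were called lower at day 21, 33 higher and 32 not, with a median of -0.08. Over all tested loci 24.6% were called higher and 43.7% lower at day 21, with a median of -0.30. The effects of day 21 and day 7 differed, with day 21 above, in 21 of the 78 and in 61 of the 104, and with day 21 below, in 25 and 19 of them. Over all 21848 tested loci these counts were 4292 above and 7753 below. The choice of loci by a high or low day 7 effect itself pushes this difference one way, so nothing is read from it.

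**Figure D5:**
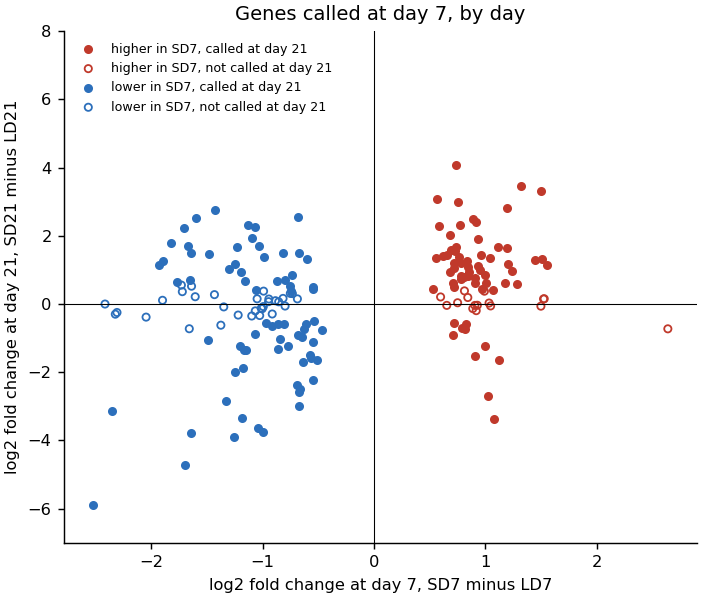
Log2 fold change of SD21 minus LD21 (y axis) against SD7 minus LD7 (x axis) for the 182 loci called at day 7, filled where also called at day 21. Of the 78 higher at day 7, 60 lie above 0 on the y axis, and the 104 lower at day 7 lie on both sides.

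The 100 loci with the largest gap in each direction, called or not, gave a similar picture. Of these, 48 higher and 53 lower in SD7 were called at day 7, so they are counted above as well. Of those higher in SD7, 52 were called higher and 20 lower at day 21, and their median log2 fold change there was 0.60. Of those lower in SD7, 35 were called lower and 29 higher at day 21, and the median was -0.01. The shares over all tested loci were 24.6% called higher and 43.7% called lower. Over all loci without overlap, the median at day 21 was 0.18 for the 2415 higher in SD7 and -0.57 for the 2996 lower in SD7, beside the -0.30 over all tested loci.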

How the data were processed

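RNA from the tips was sequenced as single reads of 43 bp (Illumina HiScanSQ), according to the labels' protocols. FPKM per locus and library are the deposited values, made by the authors, per the file headers. The submitters' processing notes name Cufflinks 2.2.1, TopHat2 2.0.13, Bowtie2 2.2.4, cutadapt 1.8.1 and FastQC 0.11.3. Genome build, annotation and use of strand: not given in the sources used here. Coordinates are those of the files. FPKM divides by mapped reads, so a few abundant loci can lower all others.

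Libraries were read from their own files and joined by identifier. The file of SD21 replicate 3 carries a header naming replicate 2 but holds other values, and was kept as replicate 3. Within groups, libraries shared no more than 1 identical nonzero value. Log2(FPKM + 1) was modelled in R 4.3.3 with limma 3.58.1 as group means over all 12 libraries, with a variance trend and robust moderation, for loci reaching 1 FPKM in at least 3 of them. All groups share 1 estimate of the spread. The named loci are called, have no overlap between SD7 and LD7 and average 5 FPKM or more in the higher group; they are the first 2 that rose and the first 2 that fell by gap. The reference gene table matched 0 identifiers, so the gene lists and markers foreseen were not run. The comparison, lists and rules were chosen with earlier results of these data known. The model was checked on simulated data. Plots used Python 3.11.15 and matplotlib 3.10.9. Alternatives were 2 scalings, no trend, 2 other filters, a pseudocount of 0.1, only the day 7 libraries, a replicate block, leaving out each library, an adjusted p under 0.10 and a 2-fold limit.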

Additional observations from a re-analysis of the deposited data

Results flagged for a closer look

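The effect of the photoperiod on 3 of the 4 named loci differed between the days, by limma's test of the difference with adjustment over all tested loci, and 55.1% of those loci had such a difference. For VIT_00s0179g00150 the day 21 effect minus the day 7 effect was -3.37 ± 0.71 on the log2 scale (SE, adjusted p = 0.0021), since it was higher in SD7 and not called at day 21. For VIT_16s0050g02680 it was 1.81 ± 0.37 (adjusted p = 0.0015), with the locus higher under SD at both days and more so at day 21. For VIT_18s0001g02360 it was -3.38 ± 0.61 (adjusted p = 0.00078), with the locus lower under SD at both days and more so at day 21. Choosing the named loci by their day 7 gap itself pushes this difference toward the sign opposite to the day 7 effect. The difference of VIT_00s0179g00150 runs that way, so nothing is read from its adjusted p, while those of VIT_16s0050g02680 and VIT_18s0001g02360 run the other way.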

How the results depend on the processing

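With 3 libraries a group and 182 called loci, the count is fragile. The signs of the named loci and runs are fixed by how these were chosen and say nothing of stability. Called loci (in all, higher, lower) numbered 118, 57 and 61 with median-ratio scaling, 108, 46 and 62 without the trend, 83, 39 and 44 without the filter, 9, 3 and 6 with only the day 7 libraries, 452, 186 and 266 at an adjusted p under 0.10, and 80, 24 and 56 with a 2-fold limit. The adjacent pairs, 4 in the main analysis, numbered 1, 1, 1, 0, 24 and 1 in the same order. Of the called loci, 91 were called the same way at day 21, against 52 without the trend, 41 without the filter, 226 at an adjusted p under 0.10 and 30 with a 2-fold limit. Leaving out each library gave 2 to 208 called loci, 0 to 89 higher, 1 to 124 lower, 0 to 13 adjacent pairs and 0 to 95 called the same way at day 21. The cause of these changes was not tested.

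The replicate numbers do not pair the day 7 libraries: deviations of same-numbered libraries correlated at 0.05, -0.03 and -0.07. Of the day 7 libraries, only SD7 replicate 1 correlated best with its own number. With the replicate number as a block, 74 loci were called (32 higher, 42 lower, 1 adjacent pair, 39 called the same way at day 21), and with the block and only the day 7 libraries 2 (1 higher, 1 lower, 0 adjacent pairs).

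The calls of VIT_00s0179g00150, VIT_16s0050g02680, VIT_03s0063g02620 and VIT_18s0001g02360 were lost in 16, 8, 6 and 11 of 21 alternatives. With only the day 7 libraries the limma adjusted p were 0.0561, 0.0529, 0.0560 and 0.0718. The count without overlap was 5195 to 5874 under 4 alternatives. With each library left out, the median log2 fold change ran from -2.25 to -1.33 over the chromosome 16 run and from 1.53 to 2.88 over the chromosome 4 run.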

Other observations

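A few loci were listed at 0 in all libraries of 1 day 7 group and at 1 FPKM or more in each of the other. There were 3 listed at 0 in SD7 and 2 listed at 0 in LD7. The chromosome 1 locus at 16263185 to 16268751 was listed at 0 in all SD7 libraries and stood at 4.83, 4.48 and 3.77 FPKM in LD7. It was listed at 0 in the 6 libraries of day 21 as well. It passed the filter on low values only through LD7, and its small standard error (0.13) comes from pooling 3 groups that are all at 0, so its limma adjusted p of 1.84e-05 does not measure a spread between replicates in those groups. A locus of 91 bp on unplaced sequence (Un, 22834306 to 22834396) was listed at 0 in SD7 and stood at 99.7, 137 and 113 FPKM in LD7. Its day 21 libraries were at 0, 143 and 0 FPKM in SD21 against 118, 0 and 94.0 FPKM in LD21, and it was not called (adjusted p = 0.182). The chromosome 5 locus at 8872222 to 8872644 stood at 18.6, 28.2 and 29.3 FPKM in SD7 and was listed at 0 in LD7, with an adjusted p of 0.0720. In all, 19 loci above 20 FPKM in at least 4 day 7 libraries were listed at 0 in another day 7 library. All values carried the status OK, and whether a listing at 0 is a failed estimate was not tested.

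A locus of chromosome 13 at 3349029 to 3351310 was close to the threshold. It stood at 140, 238 and 309 FPKM in SD7 against 42.2, 67.6 and 57.7 FPKM in LD7, without overlap (log2 fold change 1.97 ± 0.41, SE, limma adjusted p = 0.0569). At day 21 it stood at 960, 1173 and 1651 FPKM in SD21 against 22.7, 27.2 and 67.5 FPKM in LD21, where it was called higher.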
